A study of Mus musculus with 2 samples.

Results

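Cholesterol and lipid handling genes were described in sorted spinal microglia as a set of 10 genes chosen by symbol, out of 32285 genes in the deposited tables. The members were Apoe, the cholesterol exporters Abca1 and Abcg1, the lipid-binding and storage genes Fabp5, Lipa, Soat1 and Plin2, the oxysterol enzyme Ch25h, and the transcription factors Nr1h2 and Srebf1. All 10 were detected, and 9 reached the minimum of 50 unique molecular identifiers (UMIs, 1 per captured transcript) over both libraries. Ch25h, with 20 UMIs in all, did not.

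scRNA-Seq was available as 1 library per group. The control library, labelled WT, came from Eif4ebp1 fl/fl mice. The 4E-BP1–cKO library came from Eif4ebp1 fl/fl:TMEM119 CreERT2 mice, in which the Tmem119 promoter drives a Cre recombinase that acts once 4-OHT is given. Both alleles of Eif4ebp1 are therefore floxed in both groups, and Cre is the difference between them. The methods give i.p. 4-OHT from P4 to P9 and adult male mice of 8 to 10 weeks, and microglia of the lumbar spinal cord were gated as CD45 low, CD11b and CX3CR1 positive. The sources used here do not say how many mice went into a library. Because each genotype had 1 library, genotypes could not be tested against each other, and any effect of genotype cannot be told apart from a difference between 2 captures. Levels are given in CPM, summed UMIs scaled to 1000000 UMIs of the library or group of cells, unless another total is named. Every interval is an exact 95% interval that covers counting error only.

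After the study's filters (more than 300 genes and under 5% mitochondrial UMIs), 1147 WT cells with 4803562 UMIs and 445 4E-BP1–cKO cells with 1734332 UMIs were kept. The median cell held 3053 UMIs in WT and 2776 in 4E-BP1–cKO, and 0 barcodes were shared. All 12 microglial markers were detected, at 12286 and 12130 CPM in sum, and 1114 and 421 cells held at least 3 of them. Eif4ebp1 was at 19.8 CPM in WT and 29.4 CPM in 4E-BP1–cKO, so the targeted transcript was not lower in the library labelled cKO. The genotyping described in the methods refers the conditional allele to exon 2, and 3′ tags from outside a deleted exon do not check the label. Tmem119, the gene whose promoter drives Cre, was at 433 CPM in WT and 142 CPM in 4E-BP1–cKO. At least 3 markers of border-associated macrophages were found in 2 WT cells and 1 4E-BP1–cKO cell, and the list summed to 103 and 69.8 CPM, with Cd163 at 0 in both and Lyve1 at 0 in 4E-BP1–cKO. At least 3 astrocyte markers were found in 0 WT cells and 1 4E-BP1–cKO cell, at 109 and 76.1 CPM in sum. At least 3 oligodendrocyte markers were found in 15 WT cells and 1 4E-BP1–cKO cell, at 91.2 and 144 CPM, and at least 3 endothelial markers in 4 and 0 cells, at 87.4 and 28.8 CPM.

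Microglia take up myelin and dying cells and must clear the sterol that arrives with them. Lysosomal acid lipase frees cholesterol from its esters, Soat1 re-esterifies it for storage in droplets coated by Plin2, and Abca1 and Abcg1 pass it to apolipoprotein E particles. Oxysterols, which Ch25h makes, activate the liver X receptors, of which Nr1h2 encodes LXRβ, and these receptors pair with retinoid X receptors on response elements near Abca1, Abcg1, Apoe and Srebf1.

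Start sites with a window in the RefSeq promoter table (GRCm38.p6, the build of the mm10 alignment) were found for 8 of the 10 members, in 12 windows. The windows of Abca1 and Srebf1 are shown because they hold a liver X receptor element, and the first of the 3 windows of Apoe because Apoe carried most of the member UMIs and its window held no such letters. The letters GGTTACTNNCGGTCA, read on both strands, were chosen after the Abca1 and Srebf1 windows had been read, and they occurred in 3 of 32851 windows (0.00913%). The direct repeat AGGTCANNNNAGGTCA occurred in 0 of the 12 member windows and in 5 of all windows (0.0152%). Each sequence below gives the 250 bases before the start site, 5′ to 3′ on the strand of the gene, with the match in capitals. The Abca1 window (chr4:53159896-53160145, minus strand) held its match 67 to 53 bases before the start, and 1 of the 3 Srebf1 windows (chr11:60210472-60210721, minus strand) held its match 182 to 168 bases before the start. The Apoe window lay at chr7:19699189-19699438, minus strand.
Abca1: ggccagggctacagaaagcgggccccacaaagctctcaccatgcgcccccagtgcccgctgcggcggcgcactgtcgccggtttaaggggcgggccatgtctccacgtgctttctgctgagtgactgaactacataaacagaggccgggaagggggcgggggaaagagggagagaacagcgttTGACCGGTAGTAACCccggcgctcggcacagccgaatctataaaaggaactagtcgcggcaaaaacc
Srebf1: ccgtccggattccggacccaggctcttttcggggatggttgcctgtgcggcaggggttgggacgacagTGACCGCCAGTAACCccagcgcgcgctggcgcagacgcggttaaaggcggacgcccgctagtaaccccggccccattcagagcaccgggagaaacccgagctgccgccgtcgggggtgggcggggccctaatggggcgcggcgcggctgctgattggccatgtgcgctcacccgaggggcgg
Apoe: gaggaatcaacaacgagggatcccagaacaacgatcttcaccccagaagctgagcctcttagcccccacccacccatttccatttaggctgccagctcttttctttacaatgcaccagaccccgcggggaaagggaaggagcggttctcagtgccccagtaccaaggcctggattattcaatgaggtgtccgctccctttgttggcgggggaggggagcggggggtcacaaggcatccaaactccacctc
Read on the opposite strand, the Abca1 match was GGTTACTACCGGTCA and the Srebf1 match was GGTTACTGGCGGTCA. The windows searched ran from 250 bases before the start site to 50 bases after it, past the part printed. The letters of a TATA box (TATAAA, either strand) stood in windows of Abca1, Apoe, Ch25h and Lipa and in 13.6% of all windows. They began 29 bases before the start in Abca1, and 100, 151 and 239 bases before it in Apoe, Ch25h and Lipa. In Apoe and Lipa they lay on the opposite strand. The letters of a GC box (GGGCGG, either strand) stood in windows of Abca1, Lipa, Plin2, Soat1 and Srebf1 and in 35.7% of all windows. The GC boxes of Lipa, Plin2 and Soat1 lay after the start site, and the TATAAA match of Apoe lay in a window that is not printed. These matches describe letters and not binding.

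Apoe, on chromosome 7 from 19696244 to 19701310, encodes the main lipid carrier of the brain and spinal cord. It had 4243 UMIs in WT (883 CPM, 857 to 910) and 2645 UMIs in 4E-BP1–cKO (1525 CPM, 1468 to 1584). The ratio of 4E-BP1–cKO to WT was 1.73 (1.64 to 1.81), or 0.79 on the log2 scale with a pseudocount of 1 CPM. With depth not held, the share of cells with an Apoe UMI did not follow the level. It was 46.1% in WT (43.2 to 49.1%) and 45.6% in 4E-BP1–cKO (40.9 to 50.4%). After thinning to 1000 UMIs per cell it was 24.0% and 28.1%, higher in 4E-BP1–cKO as the level was. Aqp4, an astrocyte gene that microglia should lack, had a UMI in 1.83% of WT cells and 1.57% of 4E-BP1–cKO cells. Other genes of glia gave higher shares, 10.2% and 14.8% for the myelin gene Mbp and 23.3% and 17.3% for Slc1a3, a glutamate transporter on the astrocyte list, or 8.41% and 6.04% for Slc1a3 at 1000 UMIs per cell.

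Among the exporters, Abca1, which loads cholesterol onto lipid-poor apolipoproteins, was at 182 CPM in WT (170 to 194) and 163 CPM in 4E-BP1–cKO (145 to 183). Its ratio was 0.90 (0.78 to 1.03), and 38.4% of WT cells and 32.1% of 4E-BP1–cKO cells had a UMI. Abcg1, which exports sterol to larger particles, was at 29.8 CPM in WT (25.1 to 35.1) and 33.4 CPM in 4E-BP1–cKO (25.4 to 43.2), a ratio of 1.12 (0.81 to 1.53). The intervals of both ratios included 1.

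Of the enzymes and storage genes, Soat1, which esterifies cholesterol, was almost level between libraries, at 134 CPM in WT and 132 CPM in 4E-BP1–cKO, with a ratio of 0.99 (0.85 to 1.15). Lipa, the lysosomal acid lipase, was at 57.5 CPM and 45.6 CPM, with a ratio of 0.79 (0.61 to 1.02). Plin2, which coats lipid droplets, was at 42.3 CPM and 35.2 CPM, with a ratio of 0.83 (0.62 to 1.11). Fabp5, a cytosolic fatty acid binding protein, was at 12.1 CPM and 13.3 CPM, with a ratio of 1.1 (0.65 to 1.81). Ch25h, which makes 25-hydroxycholesterol, had 16 UMIs in WT and 4 in 4E-BP1–cKO, with a ratio of 0.69 (0.17 to 2.15). None of these 5 intervals left out 1, and those of Ch25h and Fabp5 reached past 1.5-fold both ways.

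Of the factors, Nr1h2 had 56 UMIs in WT (11.7 CPM, 8.81 to 15.1) and 41 UMIs in 4E-BP1–cKO (23.6 CPM, 17.0 to 32.1). The ratio was 2.03 (1.32 to 3.09), or 0.96 on the log2 scale. All 56 WT cells with Nr1h2 held 1 UMI, so the level rested on how many cells were positive, 4.88% in WT and 8.31% in 4E-BP1–cKO. Srebf1, which drives fatty acid synthesis, was at 10.8 CPM and 9.80 CPM, with a ratio of 0.91 (0.49 to 1.59).

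**Figure D1:**
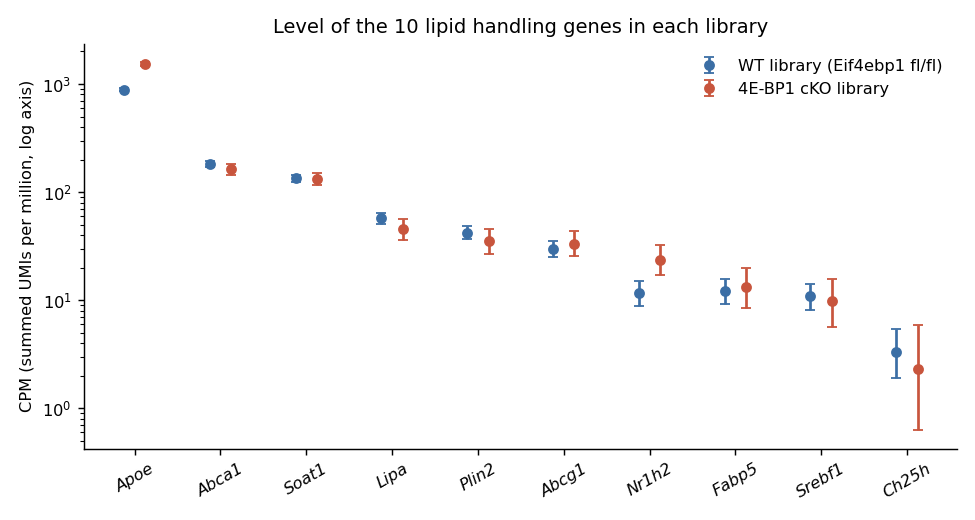
CPM of each member in the WT and 4E-BP1–cKO libraries on a log axis, with exact 95% Poisson intervals as bars, ordered by UMIs over both libraries. Apoe and Nr1h2 lie higher in the 4E-BP1–cKO library, and the intervals of the other 8 overlap between the libraries.

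Apoe and Nr1h2 were therefore the 2 of 9 members called higher by over 1.5-fold, against 3.49% of the 9368 genes with at least 50 UMIs, and 0 of 9 members were called lower, against 8.69% of these genes. The median log2 ratio was -0.02 over the 9 members and -0.04 over all 9368 genes. Low counts scatter widely, and of the 1356 genes with 80 to 120 UMIs, the range that holds Nr1h2, 6.05% lay over 1.5-fold higher and 0.369% over 2-fold higher.

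The Apoe UMIs sat in few cells. The median cell had 0 Apoe UMIs in both libraries, yet 1 cell held 226 in WT and 1 held 337 in 4E-BP1–cKO. The first 50% of the Apoe UMIs sat in 16 WT cells (1.39%) and in 10 4E-BP1–cKO cells (2.25%). At least 10 Apoe UMIs were found in 71 WT cells, or 6.19% (4.87 to 7.74%), which held 78.5% of the UMIs. In 4E-BP1–cKO they were found in 44 cells, or 9.89% (7.28 to 13%), which held 86.4%. Without the 10 cells of each library with most Apoe UMIs, the level was 540 CPM in WT and 760 CPM in 4E-BP1–cKO and the ratio was 1.41 (1.32 to 1.51), which was no longer past 1.5-fold. Those cells were picked by the value compared, after the data were seen, so both levels had to fall. The trim was also unequal, because 10 cells are a larger part of the 445 4E-BP1–cKO cells than of the 1147 WT cells. They held 52.1% of the Apoe UMIs in 4E-BP1–cKO and 40.1% in WT, so no conclusion is drawn from the lower ratio. By share of the cell, Apoe made up at least 0.5% of UMIs in 28 WT cells (2.44%, 1.63 to 3.51%) and in 29 4E-BP1–cKO cells (6.52%, 4.41 to 9.23%).

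**Figure D2:**
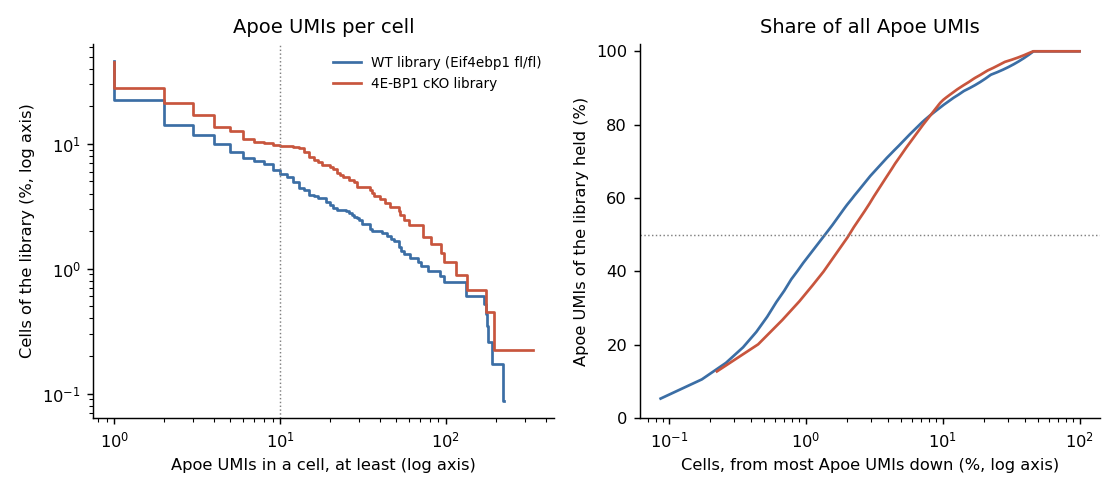
Left, the share of kept cells of each library with at least a given number of Apoe UMIs, on log axes, with a dotted line at 10 UMIs. Right, the share of all Apoe UMIs held by cells ranked from most UMIs down, with a dotted line at 50%. The libraries start together at about 46% of cells and part above 1 UMI, and under 3% of cells hold the first 50% of the UMIs in each.

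Among cells with at least 10 Apoe UMIs, at least 3 microglial markers were found in all 71 WT cells and in 43 of the 44 from 4E-BP1–cKO, with a median of 11 and 10 of the 12 markers. Nearly all kept cells met that mark, also those with border-associated macrophage markers, so it does not part these cell types. Called doublets among them numbered 0 in both libraries. The cells were deep, with a median of 7682 UMIs in WT and 6990.5 in 4E-BP1–cKO, so a count of 10 was easier to reach in them. At least 3 border-associated macrophage markers were found in 2 of these cells in WT and 1 in 4E-BP1–cKO. In WT, 25 of 31 Mrc1 UMIs, 22 of 23 Ms4a7 UMIs and 17 of 17 Pf4 UMIs fell in them, and in 4E-BP1–cKO the numbers were 1 of 4, 3 of 3 and 0 of 1. The whole list of 8 markers had 494 UMIs in WT and 121 in 4E-BP1–cKO, most of them from its other genes, so these 3 do not stand for the list. The most widespread gene of the list was found in 24.9% of all WT cells, so the sum in turn says nothing about these 3. The part of border-associated macrophages in the cells with at least 10 Apoe UMIs was not tested. With all cells that held 3 markers of another type left out, the log2 ratio of Apoe between libraries was 0.91 in place of 0.79.

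Other members moved unequally with Apoe in these cells. The folds here use a total without ribosomal protein, mitochondrial and Apoe UMIs. Fabp5 was 5.67-fold higher in WT cells with at least 10 Apoe UMIs than in the other WT cells (3.23 to 9.83), and 2.82-fold higher in 4E-BP1–cKO (1.08 to 7.0). Soat1 was 1.46-fold higher in WT (1.18 to 1.81) and 1.56-fold higher in 4E-BP1–cKO (1.14 to 2.10). Plin2 was 2.78-fold higher in WT (2.0 to 3.81), and its fold of 1.56 in 4E-BP1–cKO had an interval that included 1 (0.82 to 2.81). Abca1 had a fold of 0.88 in WT (0.70 to 1.1) and 1.44 in 4E-BP1–cKO (1.08 to 1.90). Outside the members, Olr1, a receptor for oxidized lipoprotein, was 10.1-fold and 6.89-fold higher there, with 84.9% of its 126 4E-BP1–cKO UMIs in 10 cells and 44 in 1 cell. Lpl, a lipoprotein lipase, was 6.65-fold and 2.35-fold higher, and Lyz2, a lysozyme, was 5.15-fold and 3.65-fold higher. Of the homeostatic microglial genes, P2ry12 had folds of 0.76 and 0.65, Tmem119 of 0.89 and 1.09, Cx3cr1 of 1.02 and 0.80 and Csf1r of 1.16 and 0.89, and Trem2, a lipid-sensing receptor, had 1.43 and 0.87. P2ry12 was thus lower in both libraries, and the other 4 were not lower in both. Apoc1, the next apolipoprotein of the same gene cluster, had 26 of its 27 4E-BP1–cKO UMIs and 5 of its 8 WT UMIs in these cells, and the 26 came from 1 cell. It was named after its values were seen, and it had too few UMIs for a comparison between libraries.

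Cells were also ordered by their share of ribosomal protein UMIs, to which no member contributes. It was under 3% in 659 WT and 213 4E-BP1–cKO cells and at least 8% in 144 and 87. With ribosomal protein and mitochondrial genes taken out of the total, Apoe in WT was at 489 CPM under 3%, 575 CPM from 3 to 8% and 2585 CPM at or above 8%. In 4E-BP1–cKO the same classes held 582, 647 and 4714 CPM. The fold of the highest over the lowest class was 5.29 in WT (4.89 to 5.72) and 8.10 in 4E-BP1–cKO (7.19 to 9.14). The ratio of 4E-BP1–cKO to WT was 1.19 (1.05 to 1.35) in the lowest class and 1.82 (1.72 to 1.94) in the highest. Cells with at least 10 Apoe UMIs made up 2.73% and 4.23% of the lowest class and 25.7% (18.8 to 33.6%) and 31.0% (21.5 to 41.9%) of the highest. The highest class also held deeper cells, with medians of 6520 and 4683 UMIs against 2354 and 1964, and at 1000 UMIs per cell the share with Apoe was still 39.98% and 42.7% against 23.0% and 24.3%. The middle class, at 18.3% and 22.4%, lay below the lowest at that depth, so the share did not climb steadily.

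Fabp5 followed the same order, with a fold of 5.42 in WT (2.43 to 13.2) and 4.46 in 4E-BP1–cKO (1.38 to 18.8). Srebf1 had a fold of 2.30 in WT (1.08 to 4.95) and 1.65 in 4E-BP1–cKO (0.42 to 6.83), the latter from 11 UMIs. Abca1 ran the other way, from 244 CPM in the lowest class to 128 CPM in the highest in WT, a fold of 0.52 (0.42 to 0.64), and from 206 to 139 CPM in 4E-BP1–cKO, a fold of 0.67 (0.48 to 0.94). The 4E-BP1–cKO fold of Abca1 did not pass 1.5, so it was not called. Soat1, Lipa, Plin2, Abcg1 and Nr1h2 were not past 1.5-fold the same way in both libraries. In all, 3 of 9 members were called higher in both libraries, against 18.1% of 9274 genes, and 0 were called lower, against 17.8%. For all cells at or above 3% over those under 3%, 2 of 9 members were called higher, against 17.1%, and 0 lower, against 9.73%. Marker genes of ex vivo activation, which rise during dissociation, moved with this order. From the lowest to the highest class they stood at 20670, 34783 and 38765 CPM in WT and at 23253, 45022 and 47161 CPM in 4E-BP1–cKO. The 12 microglial markers were lowest in the lowest class but peaked in the middle class. They stood at 8558, 16424 and 15794 CPM in WT and at 8418, 15924 and 14719 CPM in 4E-BP1–cKO. The border-associated macrophage list stood at 130, 107 and 74.4 CPM in WT and at 92.2, 57.9 and 79.5 CPM in 4E-BP1–cKO. The part of these lists in the Apoe level was not tested.

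**Figure D3:**
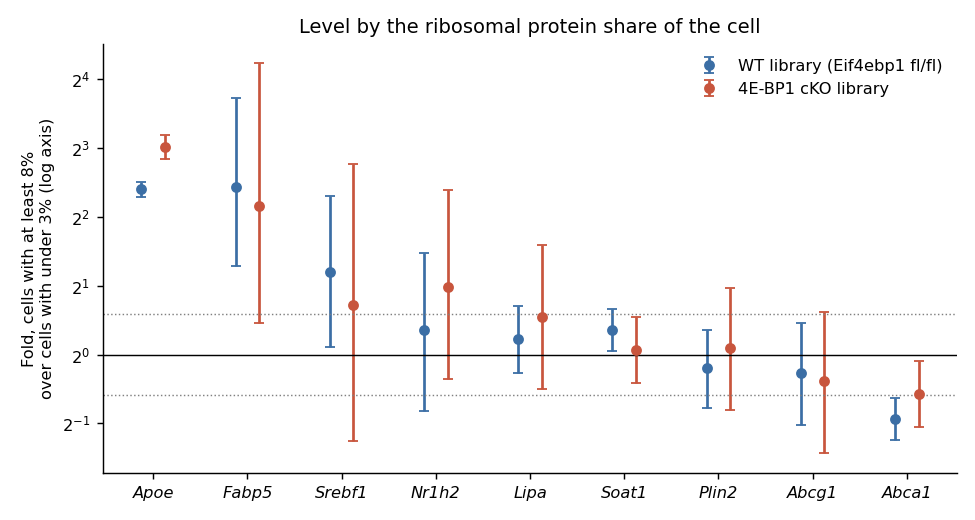
Fold of each member in cells with at least 8% ribosomal protein UMIs over cells with under 3%, by library, on a log2 axis with exact 95% intervals. The solid line marks 1 and dotted lines mark 1.5-fold either way. The folds of Apoe, Fabp5 and Srebf1 lie above the upper line in both libraries. The intervals of Srebf1 and the 4E-BP1–cKO interval of Fabp5 reach below that line. The intervals of Abca1 lie below 1 in both libraries.

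Clusters were drawn with the 10 members left out of the features, which gave 9 clusters numbered by size, from 343 to 42 cells. A level in a cluster against the rest is a description. Apoe was highest in cluster 9, the smallest, in both libraries. It stood there at 6684 CPM in WT (6271 to 7117) and 6542 CPM in 4E-BP1–cKO (6016 to 7102), and 23.0% and 21.6% of all Apoe UMIs lay in its 25 WT and 17 4E-BP1–cKO cells. The fold over the other clusters was 9.53 in WT and 5.19 in 4E-BP1–cKO. Cluster 6 came next, at 1696 CPM (1613 to 1782) and 3215 CPM (3048 to 3390), and here the 2 libraries stood far apart while in cluster 9 their intervals overlapped. That overlap depended on the clustering. In the cluster where Apoe was highest, WT and 4E-BP1–cKO stood at 6194 and 8089 CPM with at least 500 genes. With 10 principal components they stood at 6888 and 5502 CPM. The lowest level was 208 CPM in cluster 1 in WT and 65.3 CPM in cluster 5 in 4E-BP1–cKO. Clusters 9 and 6 had the highest median ribosomal protein shares, 18.8% and 9.73%. In cluster 9 the markers of ex vivo activation stood at 20490 CPM in WT and 33778 CPM in 4E-BP1–cKO, against 27987 and 35407 CPM over all kept cells. The border-associated macrophage list stood there at 34.2 and 149 CPM, against 103 and 69.8 CPM over all kept cells. Cluster 9 held 146168 UMIs in WT and 87129 in 4E-BP1–cKO, so these list levels rest on few UMIs. The most widespread gene of the list was found in 24.9% of all WT cells, so its sum does not count such macrophages. Besides Apoe, the leading genes of cluster 9 included Lyz2, with 158 UMIs, and Ifi27l2a, an interferon-induced gene, with only 17 UMIs. Those of cluster 6 included the chemokine Cxcl2, the metallothionein Mt2 and Lpl.

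Averaged over the 8 clusters in which each library had 20 or more cells, the log2 ratio of Apoe between the libraries was 0.14, against 0.79 over all cells. Apoe was higher in 4E-BP1–cKO in 6 of the 8 and lower in 2, clusters 5 and 7. The intervals of the 2 libraries overlapped in clusters 2, 7 and 8, and cluster 8 had 12 4E-BP1–cKO UMIs from 2 cells. The mean rested on cluster 5, where the log2 ratio was -2.79 from 13 4E-BP1–cKO UMIs in 34 cells. Without cluster 5, a setting chosen after the data were seen, the mean was 0.56. Cluster 9, with 17 4E-BP1–cKO cells, was not in these means. The shares of cells in the clusters where Apoe was highest were 8.54% of WT and 12.1% of 4E-BP1–cKO cells in cluster 6 and 2.18% and 3.82% in cluster 9. Cells with at least 10 Apoe UMIs made up 26 of 98 WT and 21 of 54 4E-BP1–cKO cells of cluster 6, and 10 of 25 and 8 of 17 of cluster 9.

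Abca1 was highest in cluster 1 in WT, at 308 CPM (268 to 354), and in cluster 4 in 4E-BP1–cKO, at 293 CPM (196 to 421), where cluster 1 stood at 288 CPM (212 to 383). These neighbours did not differ beyond their intervals. Its lowest levels were in cluster 6 in WT (101 CPM) and cluster 9 in 4E-BP1–cKO (80.3 CPM, from 7 UMIs in 4 cells), where Apoe was high. Plin2 was highest in cluster 8 in both libraries, at 125 CPM (77.1 to 190) and 141 CPM (45.7 to 329), the latter from 5 UMIs in 4 cells. Bag3 and Hsph1, which belong to the heat-shock response, were among the leading genes of that cluster. Fabp5 was highest in cluster 6 in WT, where 32 of its 58 UMIs lay, and in cluster 9 in 4E-BP1–cKO, where 5 UMIs came from 1 cell. Soat1 varied little in WT, from 101 to 158 CPM. Its highest 4E-BP1–cKO level, in cluster 8, came from 11 UMIs in 4 cells. Apoe and Plin2 were the 2 of 9 members that were highest in the same cluster in both libraries, against 28% of 9368 genes, and the 7 others were not. The clusters of highest level were 7 and 1 for Abcg1, 8 and 3 for Lipa, 7 and 6 for Nr1h2, and 4 and 1 for Srebf1, in WT and 4E-BP1–cKO in that order.

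**Figure D4:**
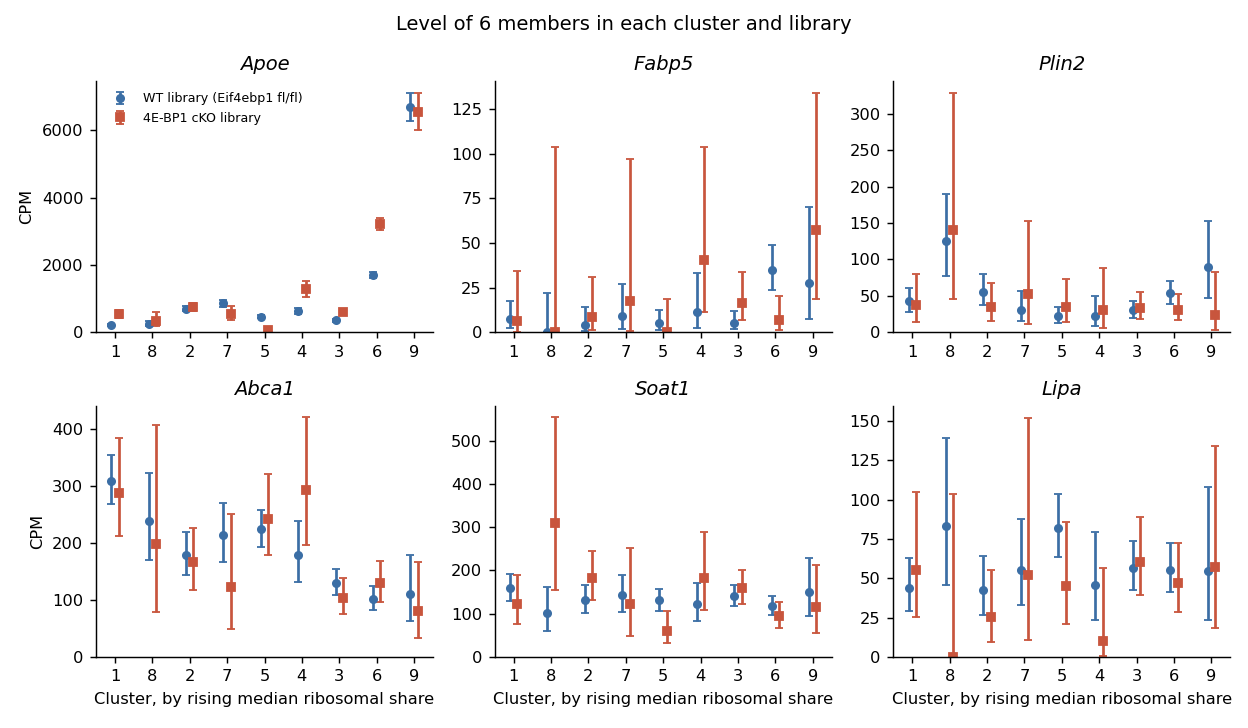
CPM of 6 members in each cluster by library, with exact 95% Poisson intervals and clusters ordered from the lowest to the highest median ribosomal protein share. Apoe climbs in clusters 6 and 9, at the right, and Abca1 is lower there than in cluster 1, at the left.

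Likeness was measured as Pearson's r of log2(CPM + 1) over the 9 clusters, in each library, among 4881 genes with at least 200 UMIs. Clusters of 1 library share its depth and capture, so these values are descriptions. The genes most like Apoe were Cxcl2 (r of 0.80 in WT and 0.85 in 4E-BP1–cKO), Bzw1 (0.79 and 0.78), mt-Co1 (0.75 and 0.91), mt-Atp6 (0.75 and 0.83) and Lyz2 (0.78 and 0.75). Abca1 was most like Tmcc3 (0.93 and 0.92) and Ppp1r9a (0.95 and 0.92). Gnas came first for both Abcg1 (0.85 and 0.90) and Lipa (0.80 and 0.92), but in 4E-BP1–cKO both members had 0 of the 35500 UMIs of cluster 8. Without that cluster the 4E-BP1–cKO r with Gnas was 0.50 for Abcg1 and 0.55 for Lipa, and that of Abcg1 with Lipa was 0.19 in place of 0.85, so these values rested on 1 cluster. Soat1 was most like Slc25a30 (0.63 and 0.84) and Csf2ra (0.60 and 0.60), and Plin2 most like Cd74 (0.70 and 0.86) and Rars (0.64 and 0.67). Soat1 and Plin2 had their highest 4E-BP1–cKO level in cluster 8, from 11 and 5 UMIs. Their r without that cluster was not computed. Apoe, a lipid carrier, and Abca1, a cholesterol exporter, had an r of -0.75 in WT and -0.54 in 4E-BP1–cKO. In 4E-BP1–cKO, Abca1 had only 7 UMIs in each of clusters 7, 8 and 9, and Apoe had 13 in cluster 5 and 12 in cluster 8.

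Detection in the same cell was compared with the number expected from each gene's share within 10 bins of depth in each library. Abca1 and Abcg1, the exporters, were found together in 96 cells where 66.7 were expected, a ratio of 1.44 (1.17 to 1.76), with 1.4 in WT and 1.54 in 4E-BP1–cKO. Of the cells with an Abca1 UMI, 16.5% held Abcg1, against 5.15% of the others, but depth was not held in these 2 shares. The same shares for Lipa were 23.2% and 13.2%, where the ratio with depth held was 1.09. The median ratio of all genes with Abca1 was 1.01, and Abcg1 ranked 8 among 9350 genes expected with Abca1 in at least 10 cells. The genes ranked above Abcg1, from Trim43c down to Rpap1, were not members. Seen from Abcg1, whose median ratio with all genes was 1.02, 4.12% of 9266 genes had a ratio as high as that of Abca1. Within clusters and 5 bins of depth, a setting chosen after the data were seen, the ratio was 1.4 (1.14 to 1.71). After thinning to 1000 UMIs it was 1.33 from 10 cells, with an interval that included 1 (0.64 to 2.45). Apoe and Abca1 were found together in 294 cells where 294 were expected.

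Apoe was found with Fabp5 in 40 cells against 31.4 expected, a ratio of 1.27 (0.91 to 1.73), with Plin2 in 100 against 85.4, a ratio of 1.17 (0.95 to 1.42), and with Soat1 in 262 against 247, a ratio of 1.06 (0.94 to 1.20). The median ratio of all genes with Apoe was 1.0. Nr1h2 and Srebf1 shared 11 cells against 7.22 expected, a ratio of 1.52 with an interval from 0.76 to 2.73. Of the 39 member pairs expected in at least 5 cells, Abca1 with Abcg1 was the only 1 whose interval left out 1. The same share over all pairs of genes was not counted, so nothing is read from that number. The median cell held a UMI of 1 member in both libraries, and 20.7% of WT and 24.5% of 4E-BP1–cKO cells held none. Cells with 4 or more members made up 9.76% and 10.6%, with median depths of 8692 and 7679 UMIs, and at 1000 UMIs per cell the mean was 0.671 and 0.688 members.

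**Figure D5:**
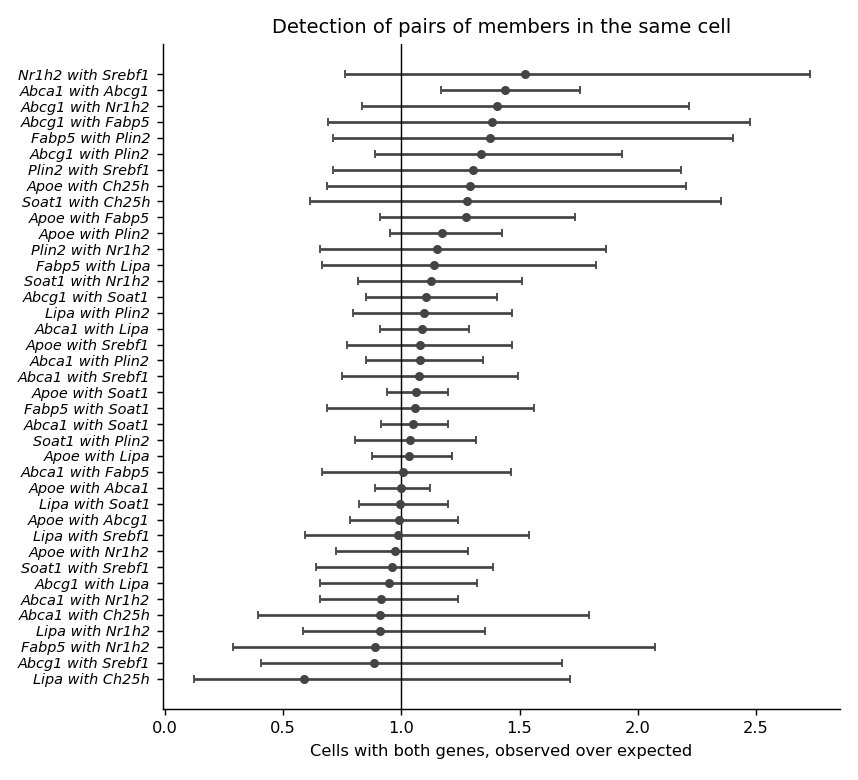
Cells with a UMI of both genes, observed over expected from the depth of the cells, for the 39 member pairs expected in at least 5 cells, with exact 95% Poisson intervals of the observed number. The line at 1 marks the number expected. Abca1 with Abcg1, at 1.44, is the pair whose interval lies above it.

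Around the members, 103 further lipid genes in 8 lists were counted, of which 66 had at least 50 UMIs. Between the libraries 3 of the 66 were called higher and 5 lower, and their median log2 ratio was 0.06, against 3.49% and 8.69% of all genes and a median of -0.04. The 3 were Rxrb, a partner of the liver X receptors (20.8 CPM in WT and 32.9 CPM in 4E-BP1–cKO, ratio 1.58, 1.12 to 2.21), Olr1 (23.5 and 72.7 CPM, ratio 3.09, 2.38 to 4.02, from few cells) and Lpl (28.3 and 87.6 CPM, ratio 3.10, 2.44 to 3.93). Lpl also sat in few cells, with 67.8% of its 152 4E-BP1–cKO UMIs in 10 cells and 33 in 1 cell. In WT 10 cells held 38.2% of its 136 UMIs. The 5 were Pltp, a phospholipid transfer protein (103 and 60.0 CPM, ratio 0.58, 0.47 to 0.72), Dgat2, which makes triglyceride (37.9 and 21.3 CPM, ratio 0.56, 0.38 to 0.81), Acat2, Acadvl and Elovl1. The last 3 had ratios of 0.43, 0.41 and 0.66. Intervals of 17 of the 66 left out 1. The same share over all genes was not counted and the intervals cover counting error only, so nothing is read from that number. Genes of the other lists with most UMIs were not past 1.5-fold, with ratios of 1.03 for Mylip, 0.97 for Ncor1 and 0.85 for Abca9 among receptor partners and targets, 1.24 for Insig1 and 0.98 for Srebf2 in sterol synthesis, and 1.06 for Osbpl8, 1.17 for Npc2 and 0.82 for Osbpl9 in sterol transport. Scarb2, Lrp1 and Sort1 among the receptors had ratios of 0.84, 0.92 and 0.84, and Lpin2, Mgll and Lipe among droplet genes had 1.08, 0.95 and 1.11. Acsl4, Elovl5 and Acsl1 of the fatty acid list had 1.02, 1.20 and 1.30, and Ppard had 1.0. Of these, Abca9, Insig1, Npc2, Osbpl9, Scarb2, Lpin2 and Acsl1 had intervals that left out 1.

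By ribosomal protein share, 9 of the 66 were called higher in both libraries and 4 lower, against 18.1% and 17.8% of all genes, so neither count stood above the background. Olr1 had a fold of 7.56 in WT (4.44 to 13.5) and 0.37 in 4E-BP1–cKO (0.23 to 0.59), opposite ways in the libraries. Insig1, which holds back sterol synthesis, had folds of 2.58 in WT (1.97 to 3.39) and 2.66 in 4E-BP1–cKO (1.72 to 4.19), Npc2, a lysosomal sterol carrier, 2.54 and 2.81, and Lpl 3.37 and 4.67. The 4 lower were Pltp (0.28 and 0.45), Lrp1, an Apoe receptor (0.60 and 0.64), Lpcat3 (0.59 and 0.48) and Abca7 (0.51 and 0.14), of which the last 2 were named after their values were seen.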

How the data were processed

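Droplet libraries (10x Genomics, 3′ chemistry) of sorted spinal microglia were sequenced for WT and 4E-BP1–cKO mice, 1 library each. Per the file headers and the submitters' processing notes, the authors aligned reads to mm10 and deposited unscaled UMI counts for each gene in each barcode from Cell Ranger 8.0.1. The study removed doublets, but here called doublets (Scrublet in scanpy 1.11.5, 4 in WT and 11 in 4E-BP1–cKO against 10.5 and 1.58 expected) were kept in the main values and removed in an alternative. The study kept fewer cells of each genotype than the filters below leave, and its count was taken after doublet removal.

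Barcodes with more than 300 genes and under 5% mitochondrial UMIs were kept, 1147 of 1216 in WT and 445 of 474 in 4E-BP1–cKO. Counts were summed per library, class or cluster and given as CPM with exact Poisson intervals, ratios with exact conditional intervals, and shares with Clopper-Pearson intervals, all at 95% and for counting error only. With 1 library per genotype there was no test. A gene needed 50 UMIs to be compared, and a call needed over 1.5-fold. Clusters came from Seurat 5.3.0 (SCTransform, RPCA integration, 20 principal components, resolution 1.4). The named genes were the 10 members, of each further lipid list the 3 genes with most UMIs and those past 1.5-fold, and the genes most like each member over clusters. One gene that this rule names is not reported here. The members and lists were chosen with earlier results of these data known. Scripts were tested on simulated data. Alternatives covered filters, totals (among them TMM factors of edgeR 4.0.16), thinning, clustering settings and depth bins. Ensembl identifiers were matched to RefSeq coordinates by symbol for 10 of 10 members.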

Additional observations from a re-analysis of the deposited data

Results flagged for a closer look

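Barcodes left out by the filters, 69 in WT and 29 in 4E-BP1–cKO, held more of some members than the kept cells of the same library, with the lower bound of their interval above the upper bound of the kept cells. The same share over all genes was not counted, so nothing is read from how many members did so. Most of them, 65 and 25, were left out for mitochondrial UMIs, and 63 and 22 held at least 3 microglial markers. Apoe was at 5202 CPM in WT (4785 to 5644) and 16070 CPM in 4E-BP1–cKO (14780 to 17442), from 576 and 572 UMIs. In 4E-BP1–cKO 1 barcode of 513 UMIs, with 0.39% mitochondrial UMIs, held 162 of them, and in WT 1 barcode of 1078 UMIs held 135. Abca1 was at 325 CPM in WT and 450 CPM in 4E-BP1–cKO. Ch25h was at 36.1 CPM in WT from 4 UMIs and 56.2 CPM in 4E-BP1–cKO from 2 UMIs. Plin2 was at 197 CPM and Srebf1 at 140 CPM in 4E-BP1–cKO, from 7 and 5 UMIs.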

How the results depend on the processing

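Without replicates, a value was taken to have moved when it left its counting interval. The log2 ratio of Apoe between libraries, 0.79, was 0.91 without cells carrying 3 markers of another type, 0.89 with no filter on barcodes, 0.91 as a mean over cells, 0.98 in cells thinned to 1000 UMIs, 0.14 as a mean over clusters, 0.56 as that mean without cluster 5, and 0.49 without the 10 cells of each library with most Apoe UMIs. The count of members past the fold, 2, was 1 with a minimum of 200 UMIs, at 2-fold, and without those 10 cells. Taking 10 cells from each library removed a larger part of 4E-BP1–cKO than of WT, so no conclusion is drawn from the values without them. The share of cells with Apoe was 24.0% in WT and 28.1% in 4E-BP1–cKO at 1000 UMIs, and 34.2% and 39.0% at 2000 UMIs. The Apoe fold by ribosomal protein share, 5.29 and 8.10, was 4.62 and 5.78 at a mitochondrial limit of 10%, 4.70 and 7.13 on all UMIs, and 3.19 and 4.53 with limits of 2 and 5%, where Srebf1 in 4E-BP1–cKO reversed to a fold of 0.89. The number of members highest in the same cluster in both libraries, 2, was 1 at a mitochondrial limit of 10% and at resolution 0.8, and 4 at resolution 2.0, with 30 components and without cells of another type. Apoe was among them in every clustering run, but the small cluster with the highest level was not found in all of them. Without cells of another type, at resolution 0.8 and without integration, Apoe was highest in a larger cluster. It held 115, 123 and 132 WT cells in that order, at 2240, 2378 and 2290 CPM. In 4E-BP1–cKO it held 66, 71 and 67 cells, at 3873, 3778 and 3971 CPM. Its median ribosomal protein share was 11.2%, 11.1% and 11.0%. Plin2 was not among them at a mitochondrial limit of 10%, with called doublets removed or at resolution 0.8. The fold of Apoe over the rest in WT and 4E-BP1–cKO was 5.52 and 6.81 without cells of another type, 5.22 and 6.58 at resolution 0.8, and 5.06 and 6.45 without integration. In 4E-BP1–cKO it was 7.02 with at least 500 genes and 4.15 with 10 components. Of the further values, 341 stayed within their interval and 44 moved, 33 of these by thinning of the shares of cells with a UMI. The causes were not tested. No paired analysis was possible because each genotype has 1 library. Depth limits Ch25h, Srebf1, Fabp5 and Nr1h2, each under 100 UMIs, and says nothing about variation between mice.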
